A study of Homo sapiens with 6 samples.

Results

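The genes described here are the 10 that make up the core of the human small RNA machinery: DROSHA and DGCR8, DICER1 and TARBP2, the Argonautes AGO1, AGO2, AGO3 and AGO4, and the scaffold genes TNRC6A and TNRC6B. They were taken by symbol from the 60664 genes of the deposited count table, and all 10 were among the 15900 genes with enough reads to test. RNA sequencing compared 3 si-GLMP libraries, labelled as GLMP knockdown, with 3 NC libraries, labelled as control, both from PC9OR lung cancer cells. PC9 is a human lung adenocarcinoma line that depends on a mutant EGFR, and the series title places PC9OR in work on resistance to EGFR inhibitors. The labels give 1 cell line and numbered repeats without saying whether each repeat was its own transfection. Every p-value is therefore about the scatter among these 6 libraries, part or all of which may be technical. The si-GLMP label stands for small interfering RNA against GLMP, a lysosomal membrane glycoprotein gene. The labels do not state what the NC cells received, the dose or the time after treatment.

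MicroRNAs are cut out of long primary transcripts in the nucleus by the Microprocessor, in which the RNase III enzyme DROSHA works with the RNA-binding protein DGCR8. Exported hairpins are cut again in the cytoplasm by DICER1, helped by its double-stranded RNA-binding partner TARBP2, and one strand is loaded into an Argonaute protein. Argonautes then recruit the GW182 scaffolds TNRC6A and TNRC6B, which bring in deadenylases and decapping enzymes, while AGO2 can also cut a fully matched target, the step on which silencing by small interfering RNA depends. The libraries measured messenger RNA, so neither mature microRNAs nor proteins were read out.

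Library totals ran from 19896875 to 22372878 counts, and 3 counts, taken as the floor of detection, corresponded to 0.134 to 0.151 CPM, a count scaled to a fixed library total. Levels below are CPM with TMM scaling, and a log2 change is the log2 fold change of si-GLMP over NC. GLMP itself had 82, 61 and 65 counts in the si-GLMP libraries, against 309, 344 and 347 in the NC libraries. Its log2 change was -2.25 ± 0.14 (SE), with an edgeR adjusted p of 1.16e-18. Of the exonic bases of GLMP, 17.5% overlap TMEM79 on the opposite strand. The 6 epithelial markers summed to 6470 to 7130 CPM in si-GLMP and 6760 to 6920 CPM in NC, most of it from the keratins KRT8, KRT18 and KRT19, which did not pass. CDH1 (log2 change 0.30, edgeR adjusted p = 0.000358) and EPCAM (0.30, edgeR adjusted p = 0.000294) were higher in si-GLMP without overlap, and their part in the results below was not tested. The lung lineage factor NKX2-1 had 0 counts in each si-GLMP library and 6, 0 and 2 counts in the NC libraries. The 5 leukocyte markers summed to 0.436 to 1.08 CPM in si-GLMP and 0.734 to 1.33 CPM in NC, with TYROBP and LYZ at 0 throughout. The 6 fibroblast and endothelial markers summed to 11.6 to 13.2 CPM in si-GLMP and 7.37 to 8.13 CPM in NC, and their part in the results below was not tested. That difference was COL1A1, at 10.1 CPM in si-GLMP and 5.38 CPM in NC (edgeR adjusted p = 1.59e-06), while VWF and PECAM1 did not pass, COL1A2 had 8, 2 and 9 counts in si-GLMP and 7, 11 and 9 in NC, and DCN and LUM had 0 or 1 count in each library. In bulk RNA, fewer cells of a kind and less RNA per cell cannot be told apart. NC replicate 2 stood apart by its mitochondrially encoded transcripts, which took 8.76% of its counts, against 6.51% to 6.57% in the other NC libraries. In the si-GLMP libraries they took 5.19% to 5.51%.

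Of the 10 core genes, 3 passed the threshold, with changes of 16.7% to 21.0% in size. In si-GLMP cells DROSHA fell by 20.6% and AGO2 fell by 16.7%, TARBP2 was 21.0% higher, and the other 7 genes did not pass the threshold. Passing meant an edgeR quasi-likelihood p under 0.05 after Benjamini-Hochberg adjustment over all 15900 genes. The same rule called 23.3% of all tested genes, 12.0% as higher and 11.3% as lower, so the 3 of 10 called here stand near that background. DESeq2 called 22.4% and limma-voom 22.7% of the genes they tested, and each also called 3 of the 10. The median log2 change of the 10 genes was -0.07, beside 0.00 over all tested genes, and the median absolute change was 0.13, beside 0.18. All tested genes include rarer ones, and these medians were not matched for level. For 4 of the 10 genes, 1 higher and 3 lower, the si-GLMP and NC ranges stood apart, against 36.5% of all tested genes (18.5% higher and 17.9% lower).

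**Figure D1:**
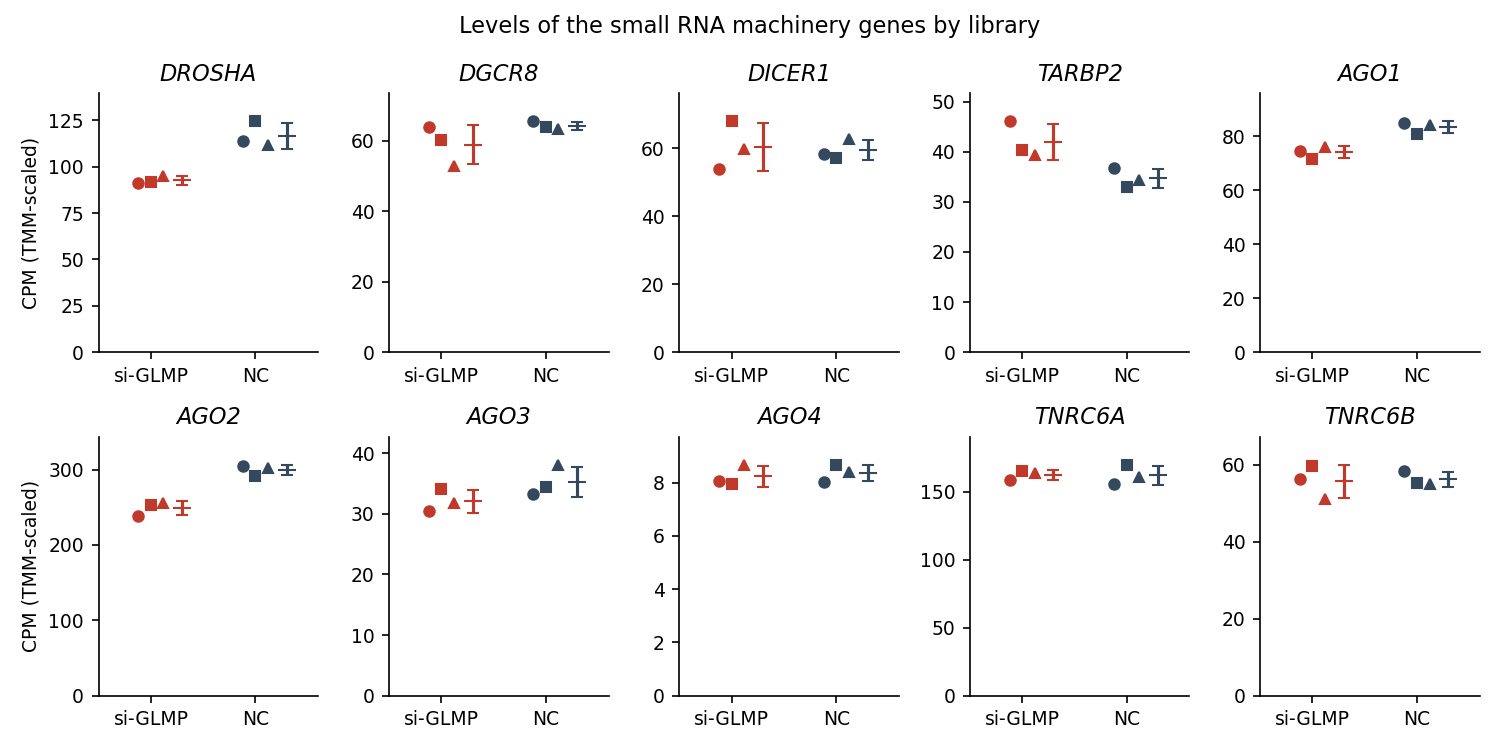
CPM (TMM-scaled) of each gene in the 3 si-GLMP libraries (red) and the 3 NC libraries (dark), with marker shapes for replicates 1 (circle), 2 (square) and 3 (triangle) and the mean with its SD beside them. DROSHA, AGO1 and AGO2 lie lower in every si-GLMP library than in any NC library, and TARBP2 lies higher.

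DROSHA, the nuclear RNase III, showed the strongest evidence of a change. It had 91.0, 91.7 and 95.2 CPM in si-GLMP replicates 1 to 3, against 114, 125 and 112 CPM in NC replicates 1 to 3. The 3 si-GLMP values lay close together and below all NC values, and NC replicate 2 was the highest library. The log2 change was -0.33 ± 0.07 (SE), its 95% interval ran from -0.47 to -0.19, and the edgeR adjusted p was 0.000190. Without NC replicate 2, where 18.7% of all tested genes were called, it was -0.28 with an adjusted p of 0.00334. DROSHA (ENSG00000113360, GRCh38 chromosome 5, 31400497 to 31532196, minus strand) shares none of its 7780 exonic bases with another annotated gene.

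DGCR8, the subunit that binds the hairpin for DROSHA, did not pass. It had 63.7, 60.03 and 52.9 CPM in si-GLMP and 65.5, 63.8 and 63.4 CPM in NC. The ranges of the groups overlapped only through si-GLMP replicate 1. Its log2 change was -0.12 (95% interval -0.28 to 0.03, edgeR adjusted p = 0.255). As a ratio of counts, which needs no scaling, DROSHA over DGCR8 was 1.43, 1.53 and 1.80 in si-GLMP and 1.74, 1.95 and 1.76 in NC. These ratios overlapped (exact permutation test, two-sided, p = 0.3, where 0.1 is the smallest p that 3 against 3 libraries allow). A lower DROSHA relative to DGCR8 was not shown.

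DGCR8 messenger RNA itself carries microRNA hairpins, and cutting there by the Microprocessor is a known route by which DROSHA and DGCR8 control the level of DGCR8. The mature sequences are shown because they mark that place in the exonic sequence of DGCR8 on chromosome 22, with the seed (bases 2 to 8) in capitals, from RefSeq on GRCh38.p14, plus strand.
hsa-miR-3618, chr22:20085797-20085818: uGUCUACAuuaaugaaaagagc
hsa-miR-1306-5p, chr22:20086072-20086093: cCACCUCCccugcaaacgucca
hsa-miR-1306-3p, chr22:20086112-20086129: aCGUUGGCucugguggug
The table's own rows for the hairpin genes MIR3618 and MIR1306 held 0 counts in every library, so cutting at these hairpins could not be followed in these counts. In the annotation, 7.22% of the exonic bases of DGCR8 overlap genes on the opposite strand.

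TARBP2, the partner of DICER1 in cutting and in handing the duplex to an Argonaute, went the other way. It had 46.1, 40.3 and 39.4 CPM in si-GLMP, against 36.8, 32.9 and 34.3 CPM in NC. Every si-GLMP library was above every NC library, with si-GLMP replicate 1 the highest. The log2 change was 0.28 ± 0.08 (SE; 95% interval 0.11 to 0.44, edgeR adjusted p = 0.0124). This call rested on single libraries. It was lost without si-GLMP replicate 1 (log2 change 0.20, adjusted p = 0.101), without NC replicate 2 (0.24, adjusted p = 0.0557) and without NC replicate 3 (0.27, adjusted p = 0.0515).

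DICER1, the cytoplasmic RNase III, did not pass and had the largest SD relative to its mean of the 10 genes among the si-GLMP libraries (60.5 ± 7.11 CPM, n = 3). It had 53.9, 68.0 and 59.7 CPM in si-GLMP and 58.3, 57.3 and 62.7 CPM in NC. The si-GLMP values spanned the whole NC range. Its log2 change was 0.03 (95% interval -0.13 to 0.18, edgeR adjusted p = 0.864). TARBP2 over DICER1 was 0.856, 0.593 and 0.661 in si-GLMP and 0.631, 0.575 and 0.546 in NC, with overlap between the groups (exact permutation p = 0.2). PRKRA, the other double-stranded RNA-binding partner of DICER1, was at -0.06 on the log2 scale with an edgeR adjusted p of 0.642. TARBP2 over PRKRA was 1.13, 0.854 and 0.954 in si-GLMP and 0.805, 0.764 and 0.741 in NC. These ratios did not overlap, but PRKRA was chosen with its values known and TARBP2 alone had passed, so they are given as a description.

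The DNA in front of DROSHA and of TARBP2 is printed because these 2 genes moved in opposite directions. The 250 bases before the RefSeq start are given from 5′ to 3′ on the gene's strand (GRCh38.p14), with matches to the searched motifs in capitals.
DROSHA, chr5:31532094-31532343, minus strand: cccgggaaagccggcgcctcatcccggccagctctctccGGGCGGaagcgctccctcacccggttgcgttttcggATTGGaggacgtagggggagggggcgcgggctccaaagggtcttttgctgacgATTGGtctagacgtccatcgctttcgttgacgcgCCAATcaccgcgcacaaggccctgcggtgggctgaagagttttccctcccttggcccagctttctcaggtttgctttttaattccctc
TARBP2, chr12:53500673-53500922, plus strand: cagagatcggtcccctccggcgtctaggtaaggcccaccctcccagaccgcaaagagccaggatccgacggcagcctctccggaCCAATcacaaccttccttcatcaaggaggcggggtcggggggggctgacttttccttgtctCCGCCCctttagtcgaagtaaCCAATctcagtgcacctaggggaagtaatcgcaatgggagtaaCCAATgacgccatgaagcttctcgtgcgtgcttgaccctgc
Both strands were searched for 6 motifs. The GC box was taken as GGGCGG. The ETS site was taken as CCGGAAG. The E-box was taken as CACGTG. The NRF1 core was taken as TGCGCA. The TATA box was taken as TATAAA, and the CCAAT box by its own letters. Each of the 2 windows held 3 CCAAT matches and 1 GC box, on either strand, and none of these overlapped. At least 1 CCAAT stood in 32.0%, and at least 1 GC box in 42.6%, of 35116 promoter windows of the same length. At the other RefSeq starts of TARBP2 the windows held 0 CCAAT matches with 2 GC boxes, and 1 CCAAT match with 0 GC boxes. DGCR8, which did not pass, held 4 CCAAT matches. Entries in the promoter table matched 9 of the 10 genes, all but AGO2, and the TARBP2 window shown is the most upstream of its 3. The RefSeq start of DROSHA lies downstream of the start in the annotation used above, so part of its window falls inside the gene as given there.

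Among the Argonautes, AGO2 was the most abundant and the one that fell past the threshold. Its levels were 239, 253 and 256 CPM in si-GLMP, against 305, 292 and 301 CPM in NC. The groups were separated by more than the spread inside either. The log2 change was -0.26 ± 0.06 (SE; 95% interval -0.39 to -0.14, edgeR adjusted p = 0.00119). With each library left out in turn the adjusted p lay between 0.00135 and 0.0220. AGO2 (ENSG00000123908) lies on chromosome 8 of GRCh38, apart from the other Argonaute genes.

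AGO4, AGO1 and AGO3 lie next to each other on the plus strand of chromosome 1 (GRCh38), at 35808172 to 35857890, 35869808 to 35930528 and 35930718 to 36072500. None of the 3 passed. AGO1, an Argonaute that loads microRNAs and is a poor slicer, had 74.7, 71.7 and 76.2 CPM in si-GLMP and 85.0, 81.0 and 84.4 CPM in NC. Its groups did not overlap, and its log2 change of -0.17 ± 0.07 (SE; 95% interval -0.31 to -0.03) missed the threshold with an edgeR adjusted p of 0.0759. Under the alternatives that p lay between 0.0556 and 0.261.

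AGO3 had 30.4, 34.0 and 31.7 CPM in si-GLMP and 33.3, 34.5 and 38.1 CPM in NC, with overlap, and a log2 change of -0.14 (95% interval -0.31 to 0.03, edgeR adjusted p = 0.255). AGO4, the rarest of the 10 genes, had 8.06, 7.97 and 8.67 CPM in si-GLMP and 8.03, 8.66 and 8.39 CPM in NC. The AGO4 libraries of the groups were interleaved, at a log2 change of -0.02 (95% interval -0.29 to 0.24, edgeR adjusted p = 0.931). That interval is the widest of the 10, since AGO4 rested on 160 to 189 counts per library. It does not leave out a fall as large as that of AGO2.

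The balance of the Argonautes was described per length, as CPM divided by exonic length in kb, since the genes differ in size. AGO2 made up 65.6%, 67.0% and 66.4% of the summed Argonaute level in si-GLMP and 68.7%, 68.1% and 67.8% in NC. That is a mean of 66.3% ± 0.733 against 68.2% ± 0.432 (SD, n = 3 each), a difference of -1.84 percentage points with no overlap. The sum over the 4 genes was 23.0, 23.9 and 24.4 CPM per kb in si-GLMP, against 28.1, 27.1 and 28.1 CPM per kb in NC, also with no overlap. No test is given for these sums, because the genes were chosen. AGO2 alone had a mean of 15.8 CPM per kb in si-GLMP and 18.9 in NC. The sum and the share therefore largely restate the fall of AGO2. AGO2 over AGO1, as a ratio of counts, was 3.20, 3.53 and 3.36 in si-GLMP and 3.59, 3.60 and 3.57 in NC, at the smallest possible exact permutation p of 0.1. This pair too was chosen with its values known and AGO2 alone had passed, so the ratio is given as a description.

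TNRC6A and TNRC6B, the scaffolds that link Argonautes to deadenylation and decapping, did not pass. TNRC6A had 159, 166 and 164 CPM in si-GLMP and 156, 170 and 161 CPM in NC, and its log2 change was 0.00 (95% interval -0.13 to 0.14, edgeR adjusted p = 0.973). TNRC6B had 56.4, 59.7 and 51.1 CPM in si-GLMP and 58.5, 55.3 and 55.03 CPM in NC, at -0.02 (95% interval -0.17 to 0.14, edgeR adjusted p = 0.920). Both intervals leave out a change as large as the estimate for DROSHA. TNRC6C, the remaining gene of that family, was low at 10.7 ± 1.34 CPM in si-GLMP and 9.55 ± 0.943 CPM in NC (SD, n = 3 each) and did not pass (edgeR adjusted p = 0.417). TNRC6A over AGO2 was 0.664, 0.654 and 0.641 in si-GLMP and 0.511, 0.583 and 0.534 in NC. All si-GLMP ratios were above all NC ratios, and the exact permutation p was 0.1, the smallest possible. The pair was chosen with its values known and AGO2 alone had passed, so these ratios are given as a description. Over the 5 count ratios computed, the adjusted p was 0.167 at the lowest.

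**Figure D2:**
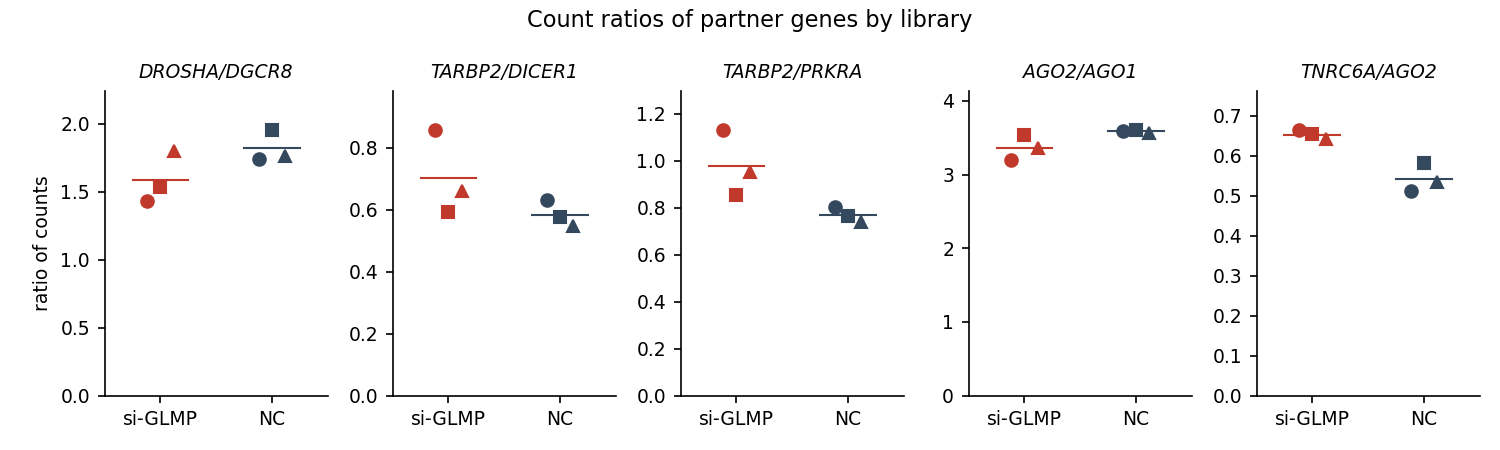
Ratio of the read counts of 2 partner genes in each library (points, shapes as replicates 1 to 3) with the group mean (line), si-GLMP in red and NC in dark. TARBP2 over PRKRA and TNRC6A over AGO2 are higher in every si-GLMP library, AGO2 over AGO1 is lower, and the other 2 ratios overlap.

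**Figure D3:**
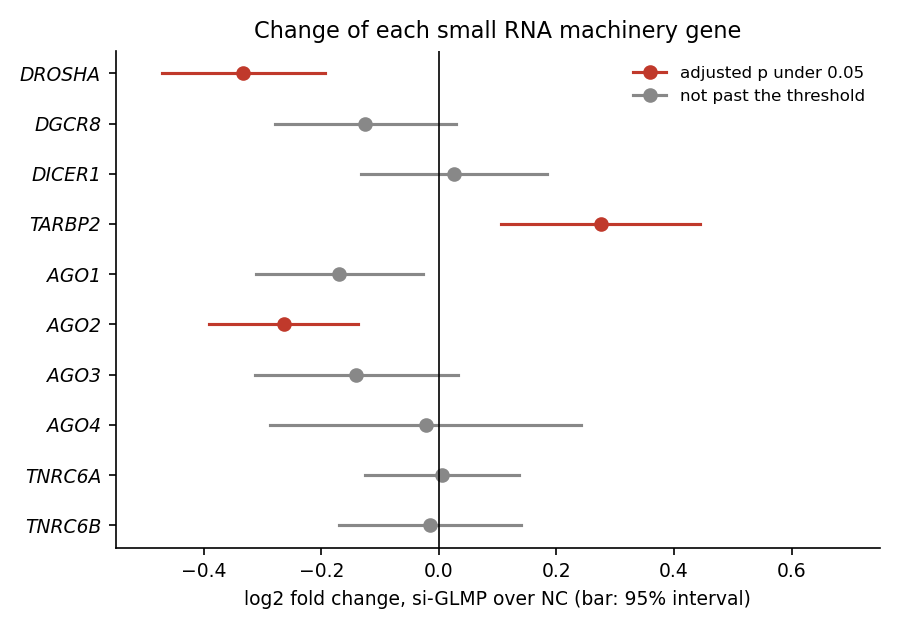
Log2 fold change of si-GLMP over NC for each gene (point) with its 95% interval (bar), in red where the edgeR adjusted p was under 0.05. The interval of AGO1 also leaves out 0, but its adjusted p was 0.0759.

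By level per length in si-GLMP cells, AGO2 came first at 15.8 ± 0.582 CPM per kb, followed by TNRC6A at 12.6 ± 0.287, DROSHA at 11.9 ± 0.292, TARBP2 at 10.3 ± 0.884 and DGCR8 at 8.05 ± 0.756 (SD, n = 3 each). In NC cells the first 5 were AGO2 at 18.9 ± 0.434 CPM per kb, DROSHA with 14.6, 16.01 and 14.4 in its 3 libraries, TNRC6A at 12.6 ± 0.557, DGCR8 at 8.78 ± 0.153 and TARBP2 at 8.48 ± 0.481. DROSHA and TNRC6A, and DGCR8 and TARBP2, thus stood in the opposite order in the 2 groups. In the NC libraries the ranges of DGCR8 and TARBP2 overlapped. The last 5 were AGO1, DICER1, TNRC6B, AGO3 and AGO4 in both groups. AGO1 and DICER1 overlapped in the si-GLMP libraries, at 5.35 ± 0.166 and 4.92 ± 0.578 CPM per kb. Exonic length joins all annotated transcripts, so a gene with long untranslated exons that these cells do not use is placed too low.

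Among the 3 genes whose levels followed DROSHA most closely over the 6 libraries were ASAP1, which acts on Arf GTPases, with a Pearson r of log2 CPM of 0.998, and MED13L, a Mediator subunit, with 0.996. The ranking covered 10629 genes with a symbol and at least 100 counts on average. Both were lower in si-GLMP and highest in NC replicate 2, as DROSHA was, and these 6 points share that group difference and that library.

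Around the core, genes that act with it were about as often changed as any others. Of 88 further small RNA genes in 8 lists, 82 could be tested, of which si-GLMP cells had 9 higher, 11 lower and 62 that did not pass. That is 24.4%, against 23.3% of all tested genes, and the median log2 change was -0.02. Without NC replicate 1 the count of 20 dropped to 13, while the count over all genes dropped to 2804, against 3712 with all libraries.

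In the nucleus, 1 of 12 Microprocessor cofactors passed, or 8.33%, against 23.3% of all tested genes. DDX5 (p68), an RNA helicase that helps DROSHA with a subset of primary transcripts and also acts in transcription and splicing, had 289, 281 and 260 CPM in si-GLMP, against 479, 446 and 497 CPM in NC. This was the largest fall among the 82 tested genes, with no overlap and a log2 change of -0.78 ± 0.06 (SE; edgeR adjusted p = 2.88e-14). Its paralog DDX17 (p72) had -0.08 (edgeR adjusted p = 0.430) and the cap-complex protein gene SRRT 0.11 (edgeR adjusted p = 0.208). Of the exonic bases of DDX5, 6.85% overlap CEP95 on the opposite strand.

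XPO5, the exportin that carries hairpin precursors out of the nucleus, was the 1 gene to pass among 9 tested for export, tailing and editing. That is 11.1%, against 23.3% of all tested genes. XPO5 had 86.1, 84.7 and 86.8 CPM in si-GLMP, against 96.1, 104 and 103 CPM in NC (log2 change -0.24 ± 0.07, edgeR adjusted p = 0.00784). The call was lost without NC replicate 3 (adjusted p = 0.0599). The let-7 regulators LIN28A and LIN28B were near the floor, LIN28A with 15 to 29 counts in each library and LIN28B with 1 to 9.

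A list of 21 genes joined loading chaperones with other Argonaute partners, and 3 were higher, 5 lower and 13 did not pass. That is 38.1% called, against 23.3% of all tested genes, a difference that was not tested. It is not a rate for the loading chaperones alone. AHSA1, which activates the ATPase of HSP90, had 320, 275 and 301 CPM in si-GLMP, against 403, 414 and 401 CPM in NC (log2 change -0.44 ± 0.06, edgeR adjusted p = 2.82e-07). HSP90AA1, the inducible HSP90 that holds an Argonaute open for the duplex, was lower at -0.25 (edgeR adjusted p = 0.00233). The HSP110 family gene HSPA4 was lower at -0.23 (edgeR adjusted p = 0.00467) and the HSP70 to HSP90 adaptor STIP1 at -0.20 (edgeR adjusted p = 0.0146). DNAJB1, a J-domain partner of HSP70, was higher at 0.23 (edgeR adjusted p = 0.00523). Of the list's remaining called genes, PTGES3 (0.18, edgeR adjusted p = 0.0305) and FXR2 (0.21, edgeR adjusted p = 0.0292) were higher. DHX9 was lower (-0.19, edgeR adjusted p = 0.0160). HSP90AB1, the constitutive HSP90, had -0.06 (edgeR adjusted p = 0.561) and HSPA8 had 0.02 (edgeR adjusted p = 0.863). HSP90AA1 has processed pseudogenes, so its single value is uncertain to the extent that reads were shared. The STIP1 call was lost in 4 of the 6 fits that left out 1 library, with adjusted p up to 0.0831, the HSPA4 call without si-GLMP replicate 3 (0.0530) and the DNAJB1 call without NC replicate 1 (0.0553).

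Of 9 genes for the modification and turnover of Argonautes, 2 were higher and 1 lower, or 33.3%, against 23.3% of all tested genes. AJUBA, a LIM-domain scaffold related to the AGO-binding protein LIMD1, had 138, 128 and 142 CPM in si-GLMP, against 189, 187 and 211 CPM in NC (log2 change -0.52 ± 0.07, edgeR adjusted p = 1.43e-08). LIMD1 itself had 0.02 (edgeR adjusted p = 0.903). P4HA1 and P4HB, the subunits of collagen prolyl 4-hydroxylase, an enzyme that also hydroxylates AGO2, were higher at 0.34 (edgeR adjusted p = 0.00247) and 0.25 (edgeR adjusted p = 0.00145). P4HA1 did not pass without NC replicate 3 (0.0754).

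Silencing effectors, which remove the poly(A) tail and the cap of targeted messages, went both ways, with 4 of 25 higher, 3 lower and 18 not past the threshold. That is 28.0% called, against 23.3% of all tested genes. EIF4E2, a cap-binding repressor, had 88.1, 87.2 and 84.6 CPM in si-GLMP, against 64.4, 67.2 and 67.3 CPM in NC (log2 change 0.39 ± 0.07, edgeR adjusted p = 2.93e-05). DCP2, the decapping enzyme, was higher at 0.40 (edgeR adjusted p = 0.000201) and PAN2, a deadenylase subunit, at 0.41 (edgeR adjusted p = 0.00390). EDC3, an activator of decapping, was lower at -0.52 (edgeR adjusted p = 9.07e-06), as was the decapping scaffold PATL1 at -0.29 (edgeR adjusted p = 0.00186). The CCR4-NOT scaffold CNOT1 had -0.08 (edgeR adjusted p = 0.427) and the helicase gene DDX6 -0.05 (edgeR adjusted p = 0.692). Of the exonic bases of EIF4E2, 24.2% overlap genes on the opposite strand, and of EDC3 13.7%.

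The PIWI genes, which act on transposons in the germ line, had few or no reads. PIWIL3 had 0 counts in every library, and PIWIL1 had 2 counts in si-GLMP replicate 3 and 0 elsewhere. PIWIL4 had 5, 7 and 4 counts in si-GLMP and 8, 4 and 12 in NC. PIWIL2 had 8, 9 and 7 counts in si-GLMP and 1, 1 and 5 in NC, too few to test.

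**Figure D4:**
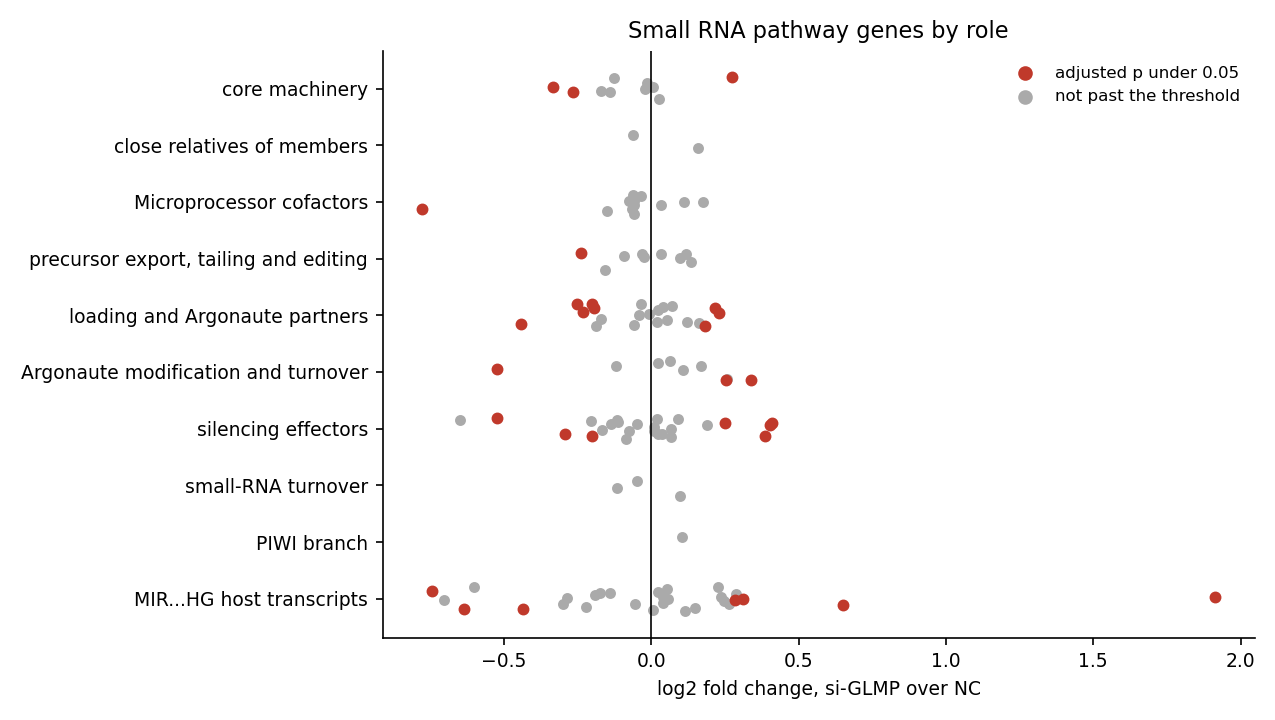
Log2 fold change of si-GLMP over NC for each tested gene (point) by role, with the 10 core genes in the top row and edgeR adjusted p under 0.05 in red. Red points fall on both sides of 0 in the core row, the loading, modification and effector lists and the host transcripts.

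Primary microRNA transcripts were looked at only through genes named as microRNA hosts. Genes without such a name can carry hairpins too, as DGCR8 does. Of 74 transcripts named as microRNA host genes, 29 could be tested, with 4 higher and 3 lower in si-GLMP and 22 that did not pass, or 24.1%, against 23.3% of all tested genes. They did not shift one way, as the median log2 change was 0.04. The 4 with the smallest adjusted p were MIR9-3HG, MIR100HG, MIR1915HG and MIR210HG.

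Mature sequences that RefSeq (GRCh38.p14) places inside these 4 transcripts on their strand are shown because they are the small RNAs these hosts carry, with the seed (bases 2 to 8) in capitals. MIR9-3HG is on the plus strand and the other 3 are on the minus strand. For hairpins with both arms listed, 1 arm is shown, except for miR-9, and hsa-miR-10526-3p, also inside MIR100HG, is not shown.
hsa-miR-9-5p (MIR9-3HG), chr15:89368032-89368054: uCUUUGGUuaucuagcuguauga
hsa-miR-9-3p (MIR9-3HG), chr15:89368071-89368092: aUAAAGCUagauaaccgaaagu
hsa-miR-125b-5p (MIR100HG), chr11:122099809-122099830: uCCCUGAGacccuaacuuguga
hsa-let-7a-5p (MIR100HG), chr11:122146568-122146589: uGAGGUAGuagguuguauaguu
hsa-miR-100-5p (MIR100HG), chr11:122152275-122152296: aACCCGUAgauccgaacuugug
hsa-miR-1915-3p (MIR1915HG), chr10:21496576-21496595: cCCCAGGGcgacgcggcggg
hsa-miR-210-3p (MIR210HG), chr11:568112-568133: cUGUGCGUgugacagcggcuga
No 2 of these sequences share a seed.

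MIR9-3HG had 51.7, 45.6 and 47.7 CPM in si-GLMP, against 66.9, 63.7 and 65.2 CPM in NC (log2 change -0.43 ± 0.08, edgeR adjusted p = 1.30e-05). MIR100HG, host of the let-7a-2, miR-100 and miR-125b-1 cluster, had 17.6, 22.1 and 19.96 CPM in si-GLMP, against 10.8, 15.9 and 11.3 CPM in NC (0.65 ± 0.12, edgeR adjusted p = 5.60e-05). MIR1915HG had 5.82, 4.90 and 4.94 CPM in si-GLMP, against 8.74, 8.47 and 9.01 CPM in NC (-0.74 ± 0.14, edgeR adjusted p = 6.67e-05). In none of these 3 did the groups overlap. MIR210HG, host of the hypoxia-linked miR-210, was rare, with 14, 31 and 16 counts in si-GLMP, against 5, 7 and 4 in NC (1.91 ± 0.47, edgeR adjusted p = 0.00150). Its NC counts were all below the filter's minimum count of 10, so it entered the test through the si-GLMP libraries alone. The fold and p of MIR210HG are therefore given as a description. It had a result in 12 of the 14 alternatives, with adjusted p up to 0.0486. Levels of the host transcripts say nothing of the mature microRNAs, whose hairpins lie in introns of these 4 annotated hosts.

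**Figure D5:**
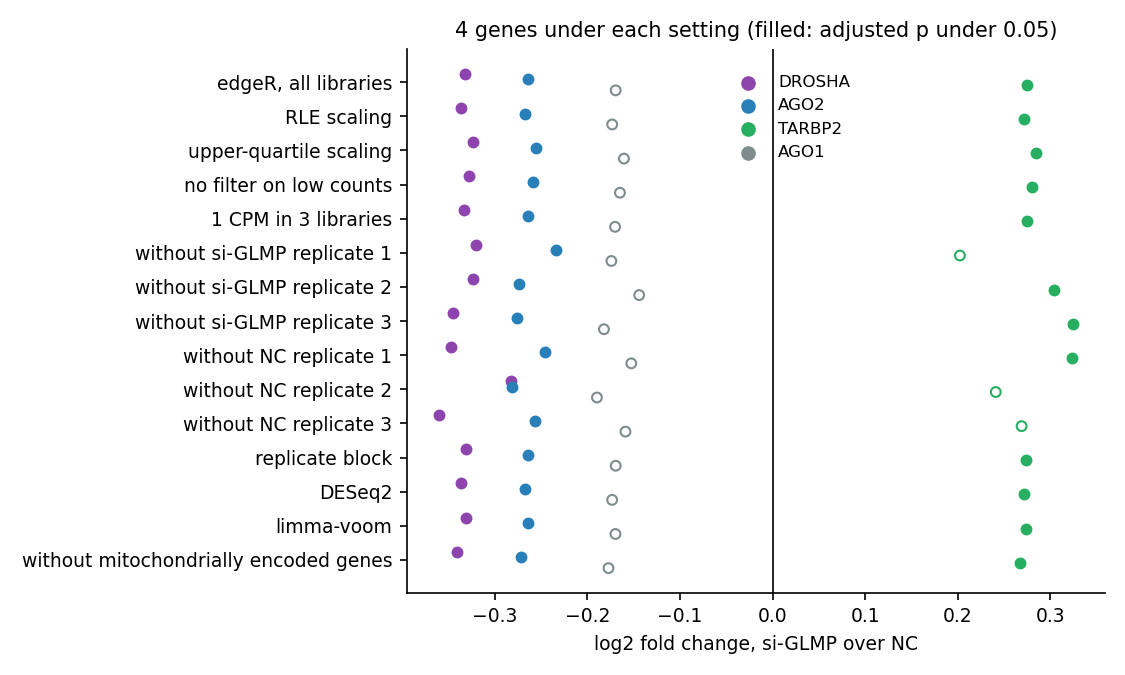
Log2 fold change of DROSHA, AGO2, TARBP2 and AGO1 under each way of processing the counts, filled where the adjusted p was under 0.05. DROSHA and AGO2 are filled in all rows, AGO1 in none, and TARBP2 is open in 3 rows that each leave out 1 library.

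The scatter among the libraries and, for genes with few counts, the depth limited how small a change could be seen. Counts were simulated over 15534 genes with the sizes of these libraries and the same common dispersion for every gene. They thus did not carry the spread of single genes or of single libraries. Of 50 genes each, 5 were recovered at the smallest fold simulated, 22 at 1.3-fold, 39 at 1.5-fold and 49 at 2-fold. The simulation altered only 50 genes per fold, while 3712 of the 15900 tested genes were called in the data. Its adjustment for multiple testing therefore worked on a different background, and these rates cannot be read as those of the core genes. The 3 called core genes changed by less than 1.3-fold, and the 7 that did not pass are not shown to be unaltered.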

How the data were processed

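RNA of 6 PC9OR libraries, 3 si-GLMP and 3 NC, was sequenced from Illumina mRNA libraries, per the labels' protocols. The authors deposited raw read counts per gene, with Ensembl identifiers and symbols and no normalization. The submitters' processing notes name HISAT2 and GRCh38. Which tool counted the reads, on which annotation and with which strand setting is not stated in the labels or headers, so reads of genes that overlap on opposite strands cannot be told apart. All count columns were matched to samples by title, and 0 were left over.

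The main fit used edgeR 4.0.16 (R 4.3.3), filterByExpr with a minimum count of 10, TMM scaling (factors 0.9639 to 1.018) and a robust quasi-likelihood test of si-GLMP against NC without covariates. Benjamini-Hochberg adjustment ran over all 15900 genes, with 0.05 as threshold. Standard errors were taken as |log2 fold change| over the root of the F statistic, and the 95% intervals use it with the degrees of freedom of the fit. The biological coefficient of variation was 6.91%. No replicate pair of a group agreed within sampling noise (chi-square per gene at least 2.23). Annotation came from GENCODE release 29, matched by gene identifier for all 10 genes.

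The 10 genes, the lists and the naming rule were chosen with earlier results of these data known. Named beside the 10 genes and GLMP were up to 15 genes of the lists and up to 4 host transcripts with the smallest adjusted p under 0.05, and the 3 genes most like the core gene with the smallest adjusted p, 1 of which is not reported here. Genes of the lists given as not past the threshold, the genes of the PIWI branch, PRKRA, TNRC6C and the microRNA hairpin genes were chosen after their values were seen. Outside the naming rule, so were PTGES3, FXR2, DHX9 and MIR200CHG. The 5 count ratios and their exact permutation tests were likewise added after the data were seen. Alternative settings tried were scaling by RLE or by the upper quartile, the table without a low-count filter, 1 CPM in 3 libraries, each library left out, a replicate block, DESeq2 1.42.0 and limma-voom (limma 3.58.1).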

Additional observations from a re-analysis of the deposited data

How the results depend on the processing

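DROSHA and AGO2 passed the threshold under each of the 14 alternatives run, with log2 fold changes from -0.36 to -0.28 and from -0.28 to -0.23, and AGO1, AGO3 and DGCR8 passed under none. The count of core genes called was 3, and 2 where TARBP2 was lost. Leaving out each library in turn moved TARBP2 between 0.20 and 0.32 and its adjusted p between 0.0104 and 0.101. It moved DGCR8 between -0.19 and -0.046, lowest in size without si-GLMP replicate 3, AGO3 between -0.19 and -0.079, lowest in size without NC replicate 3, AGO4 between -0.054 and 0.0043, DICER1 between -0.066 and 0.10, TNRC6A between -0.019 and 0.041 and TNRC6B between -0.067 and 0.051, none of which passed, and the further small RNA genes called between 13 and 21. Without the mitochondrially encoded genes, an alternative chosen after seeing the data, TNRC6A was at -0.0029. The cause of these moves was not tested. Libraries with the same replicate number did not deviate together (correlations of 0.0388, 0.0263 and 0.00128), and the labels tie them to nothing shared, so they have only a number in common. With the replicate block the fit called 3972 genes, 3 of the 10 core genes and 23 of the further small RNA genes, and DROSHA had an adjusted p of 0.000102. DESeq2 called 3287 genes and limma-voom 3603, each with the same count of 3 core genes. AGO4 and MIR210HG are limited by depth.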

Other observations

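The deposited table also counts reads over microRNA hairpin genes. Of 1877 such rows 17 could be tested, and 2 were higher and 0 lower in si-GLMP, or 11.8%, against 23.3% of all tested genes. These 17 rows held few counts, so the 2 shares were not compared at like depth. Both were chosen after their values were seen. MIR429, of the miR-200 family that keeps epithelial cells epithelial, had 63, 52 and 31 counts in si-GLMP, against 29, 16 and 29 in NC (log2 fold change 0.99, edgeR adjusted p = 0.00661). The MIR429 groups were barely apart, with 31 as the lowest si-GLMP count and 29 as the highest NC count. Of the same family, MIR200A (0.36, edgeR adjusted p = 0.574) and MIR200B (0.63, edgeR adjusted p = 0.219) did not pass. The host transcript MIR200CHG went the other way, also without passing (-0.70, edgeR adjusted p = 0.288). A change of the family was therefore not shown. MIR3685 had 19, 27 and 9 counts in si-GLMP, against 10, 6 and 4 in NC (1.45, edgeR adjusted p = 0.0184), so its ranges overlapped. Of its NC counts only that of replicate 1 reached the filter's minimum count of 10. It entered the test mainly through si-GLMP replicates 1 and 2, so its fold and p are given as a description.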
